A study of Rattus norvegicus with 28 samples.

Results

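Messages of the cytosolic ribosomal protein genes were counted in the prefrontal cortex of outbred Sprague-Dawley rats, all adult males. The genes were taken as the protein-coding gene records of the deposited count table whose symbol is Rpl or Rps with a number (with or without a or x), Rplp0, Rplp1, Rplp2 or Rpsa. This rule chose 88 of 36387 records, carrying 68 symbols, since 10 symbols stand on more than 1 record and hold 30 records between them. There were 31 records for proteins of the small (40S) subunit and 57 for proteins of the large (60S) subunit.

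Each rat was 8 weeks old on arrival, received a first intraperitoneal injection of ketanserin in 5% Tween-80 or of the Tween-80 solution alone, and then psilocybin in saline or saline alone. Cortex was collected 24 h later, and RNA of 4 animals per group was sequenced after poly-A selection. The 7 groups were psilocybin at 1 mg/kg, psilocybin at 3 mg/kg, ketanserin at 1 mg/kg, ketanserin at 3 mg/kg, both drugs at 1 mg/kg each and both drugs at 3 mg/kg each (the combinations), and vehicle, which had both solutions without drug. Psilocybin acts through its product psilocin, which activates receptors for serotonin, and ketanserin is a blocker of the serotonin 2A receptor. Every group had had both injections, so no animal was left uninjected.

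A ribosome joins a small subunit, which reads the messenger RNA, to a large subunit, which makes the peptide bond. Each subunit holds many different proteins in single copy, apart from the acidic P1 and P2 proteins of the stalk, so their genes are known to be expressed in step. Many mammalian ribosomal protein messages begin with a C followed by a run of pyrimidines, the 5′ terminal oligopyrimidine (TOP) tract, through which the kinase mTOR controls their translation. Messages of ribosomal proteins are also found in dendrites and axons of neurons. Mammalian genomes also hold numerous intronless copies of these genes, most of them processed pseudogenes.

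The tract was looked for at annotated transcription starts of the rat RefSeq promoter table (build GRCr8), as a C at the first transcribed base followed by at least 4 bases that are each C or T, on the transcribed strand. Of the 68 symbols, 53 had a window of 250 bases before and 50 after a start, and 54 windows were found. The tract stood at the start of 21 of these 54 windows (38.9%), against 881 of all 33469 windows (2.63%), and within 5 bases of the start in 61.1% of member windows, against 17.04% of all windows. The sequences below run from 15 bases before the start to 15 bases from it. They show 5 members with the tract, in capitals, and then 3 members with no such tract at the annotated first base, chosen because Rpl3 and Rpl4 were the steadiest members and Rpl7a among the least steady.
Rpl19: cgcgaccagcaagctCTTTCCTTTCgctgc
Rpl17: tagccttcgcgcttcCTCTTCCTgttagcg
Rpl31: ccacaatccctcgcgCCTTTCCTTTCCaac
Rplp1: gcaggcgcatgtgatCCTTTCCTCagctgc
Rplp0: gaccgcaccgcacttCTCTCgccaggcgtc
Rpl3: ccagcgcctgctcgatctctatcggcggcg
Rpl4: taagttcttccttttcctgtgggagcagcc
Rpl7a: ctctcctccagccgagcaagatggtgagtg
These windows lie at chr10:83519049-83519078 (plus strand) for Rpl19, chr18:70856261-70856290 (plus) for Rpl17, chr9:49143096-49143125 (plus) for Rpl31, chr8:71290858-71290887 (minus) for Rplp1 and chr12:46718376-46718405 (minus) for Rplp0. Those without the tract lie at chr7:113507976-113508005 (minus) for Rpl3, chr8:73566462-73566491 (plus) for Rpl4 and chr3:30637121-30637150 (plus) for Rpl7a. The tract was 10 bases long in Rpl19, 12 in Rpl31 and 5 in Rplp0. In Rpl4 a pyrimidine run ends just past the annotated start, so a shift of the annotated base by a few positions would change the count. All other coordinates below are on rn6, the build of the deposited table.

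The libraries held 12783067 to 18538414 counted reads, with a median of 15366978. All 9 cortical neuron markers were tested, at a median of 826.9 CPM (read counts relative to the TMM-scaled library size), whereas 7 choroid plexus markers had a median of 0.207 CPM and 4 of them were under 1 CPM. The summed level of the cortical neuron markers was 8724.54 to 12529.1 CPM in single libraries, and these ranges overlapped between all groups. One library, replicate 4 of ketanserin with psilocybin at 3 mg/kg, had 19602 records at 0, against 15344 to 16657 in the others, and the medians of comparisons with that group are also given without it. In whole tissue, fewer cells of a type and less RNA per cell cannot be told apart.

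Most ribosomal protein genes were among the abundant messages of the cortex. Of the 88 records, 77 passed the filter on low counts (31 of 31 for 40S and 46 of 57 for 60S proteins) and stood for 65 symbols, and 58 of them averaged at least 50 CPM. The median FPKM (the authors' deposited values, scaled by gene length and library size) was 302.2 over the 31 tested 40S records, and 204.8 over the 46 tested 60S records. All members together took 0.948 to 1.84% of the reads of a library.

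Levels of different members were compared in FPKM, that is per length. Rpl41, the smallest ribosomal protein, had 747.9 ± 211.5 FPKM (SD over 28 libraries), with a range of 340.7 to 1326.2. The chromosome 6 record of Rps29, a small zinc-binding protein of the 40S head, had 738.1 ± 222.3 FPKM. Rpl13a, whose human protein also takes part in translational silencing after interferon, had 685.6 ± 138.0 FPKM. Their ranges over the 28 libraries overlapped almost fully, so the order of these 3 is not separated by the spread. Of the stalk proteins, Rplp1 (chromosome 8) had 591.4 ± 145.1 FPKM and Rplp0, the stalk base, 323.2 ± 54.9 FPKM.

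Other core members lay below Rpl41, Rps29 and Rpl13a, with Rpl11 lowest per length of those named here. In the 40S subunit, Rps14 at the platform had 548.3 FPKM, Rps15 in the head 543.8, Rps3 at the messenger entry site 389.8, Rps2 (chromosome 10) 372.3 and Rpsa, which is also known as the laminin receptor precursor, 358.5. Rps27a, which is made as a fusion with ubiquitin, had 313.6 FPKM, and Rps19, a gene mutated in human Diamond-Blackfan anaemia, had 149.0 FPKM. In the 60S subunit, Rpl24 at the subunit interface had 325.2 FPKM, Rpl4, which lines the exit tunnel, 316.1, Rpl3 near the peptidyl transferase centre 301.1, Rpl26 near the exit of the tunnel 187.8, and Rpl39 (chromosome X), another tunnel protein, 188.8. Rpl5 and Rpl11, which carry the 5S RNA and bind Mdm2 when ribosome assembly is disturbed, had 228.8 and 36.2 FPKM. In CPM, which is not scaled by length, they had 246.9 and 140.4, so the low place of Rpl11 depends on the length of its record.

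**Figure D1:**
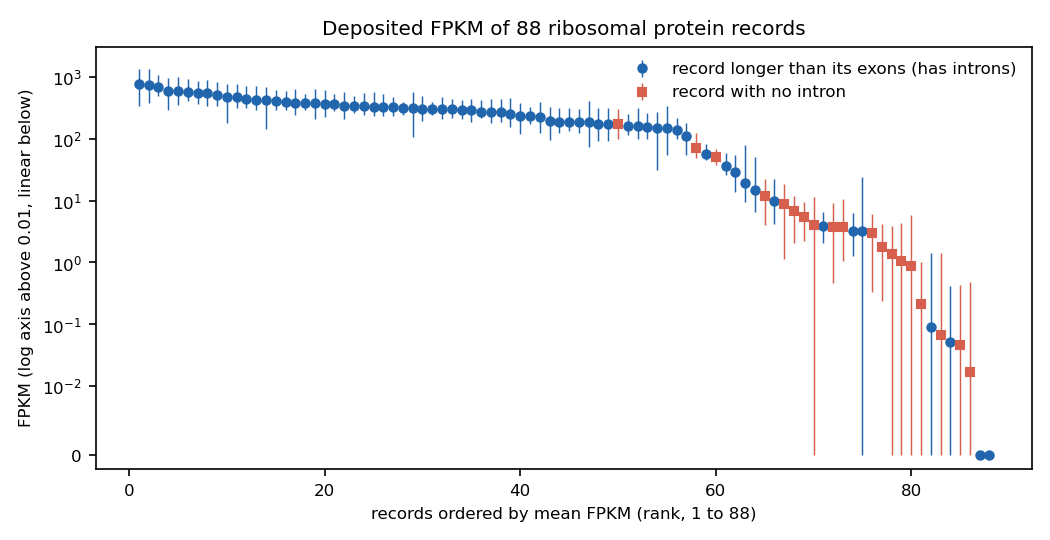
Mean deposited FPKM of each of the 88 member records over 28 libraries (y axis, FPKM, log scale above 0.01 and linear below), ordered by level on the x axis, with bars from the lowest to the highest library. Circles are records with introns and squares are records without, which lie mostly in the low tail, while the top reaches 747.9 FPKM and 2 records lie at 0.

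The low end of the list consisted largely of additional records. Of the 88 records, 19 had no intron (exon length equal to the span on the genome), and 12 of these were tested. Rpl39 had 7 records and Rpl35a had 5, and 12 tested records averaged under 5 CPM. Among the 11 untested records were the only ones of 3 symbols. Rpl23a, which sits beside the tunnel exit, and Rpl10a of the L1 stalk had 0 reads in all 28 libraries, which at 3 reads in all allows a mean of up to 0.00701 CPM. Rplp2, the partner of Rplp1 in the stalk, had 15 reads in all, a mean of 0.0323 CPM. Rpl10 and Rpl22 had no record under the rule and were not analysed here.

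Rps6, whose protein is a substrate of S6 kinase, averaged 2.96 CPM, against 25.5 CPM for the sum of the records described as S6. It held 11.8% of that sum. Taking every record whose description names the same cytosolic ribosomal protein gave 294 records for the 68 proteins, 206 of them outside the symbol rule. The lead record held under 50% of the summed reads for 10 proteins. The single leading Rpl38 record, on chromosome 8, held 0.941% of the 91.0 CPM of all L38 records. The sums for L23a, L10a and P2 were 8.28, 7.44 and 54.4 CPM, so that transcripts assigned to these proteins were counted even though the named records were at or near 0. The handling of reads that match several records is not known here, and the low values of Rps6, Rpl7a, Rpl8, Rpl38, Rpl23a, Rpl10a and Rplp2 are therefore uncertain as measures of the genes. The lead records of Rpl30, Rpl35a and Rps4x, which held 42.5, 26.8 and 19.7% of their sums, carry the same uncertainty.

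The abundant members varied together from library to library. The correlation of a member with the mean of the other members over the 28 libraries, which share scaling and depth, had a median of 0.940 over the 77 tested members and 0.955 over those of at least 50 CPM. The other 17327 tested genes had a median of 0.0324 with the mean of the members, and 1327 of them exceeded 0.8. The genes most like the list were Atp5h (r = 0.987), a subunit of mitochondrial ATP synthase, Mea1 (0.985), Atp6v1f (0.981), a subunit of the vacuolar proton pump, Cox6c (0.978), a subunit of cytochrome c oxidase, and the record Hint1-ps1 (0.978).

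This shared movement was summarised as a list level, the median over the 77 members of log2 CPM minus the member's mean over all 28 libraries. It ranged from -0.49 in replicate 3 of ketanserin 3 mg/kg to 0.73 in replicate 1 of psilocybin 3 mg/kg, the library titled GF6. In that library 75 of 77 members lay above their mean, and members took 1.84% of the reads. The other 3 libraries of psilocybin 3 mg/kg had levels of 0.08, -0.002 and 0.17. Replicate 4 of ketanserin 1 mg/kg, titled GF30, lay at -0.35 with 74 of 77 members below their mean, whereas the other 3 libraries of that group lay between 0.05 and 0.16.

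GF6 lay above and GF30 below all other libraries of its group. Both were looked at because their levels stood apart. Dixon's test, described further on, flagged neither list level. With 4 values per group that does not show that they belong with the others. GF6 had the highest level of all 28 libraries, while libraries lower than GF30 occurred in other groups. Next below GF6, vehicle replicate 2 (GF9) had a level of 0.50, replicate 2 of ketanserin with psilocybin at 3 mg/kg had 0.47 and psilocybin 1 mg/kg replicate 2 had 0.42. At the low end, replicate 4 of ketanserin with psilocybin at 1 mg/kg had -0.46, replicate 4 of the combination at 3 mg/kg -0.43 and vehicle replicate 1 -0.33. The 40S and 60S levels of a library never differed by more than 0.067, within a range of 1.22 for the list level. Both subunits thus shifted by nearly the same amount in each of the 28 libraries.

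The list level ran with a trend over gene length. In each library, Spearman's rho was taken between gene length and the deviation of log2 CPM from the gene's mean, over the 17327 tested genes that are not members. All 9 libraries with a list level above 0.1 had a rho below 0, and all 11 libraries below -0.1 had a rho above 0. In the 5 libraries of highest list level rho was -0.32 to -0.24, and in the 5 of lowest level 0.20 to 0.28. In GF6 rho was -0.32 and in GF30 it was 0.20. Nuclear genes of the respiratory chain had list levels of 0.24 to 0.69 in the 5 highest libraries and -0.78 to -0.28 in the 5 lowest, and mitochondrially encoded genes took 8.91 to 11.7% and 6.98 to 8.63% of the reads. The TMM factors were 0.905 to 0.989 in the 5 highest and 1.00 to 1.05 in the 5 lowest. The part of gene length, library composition or RNA quality in the list level was not tested.

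**Figure D2:**
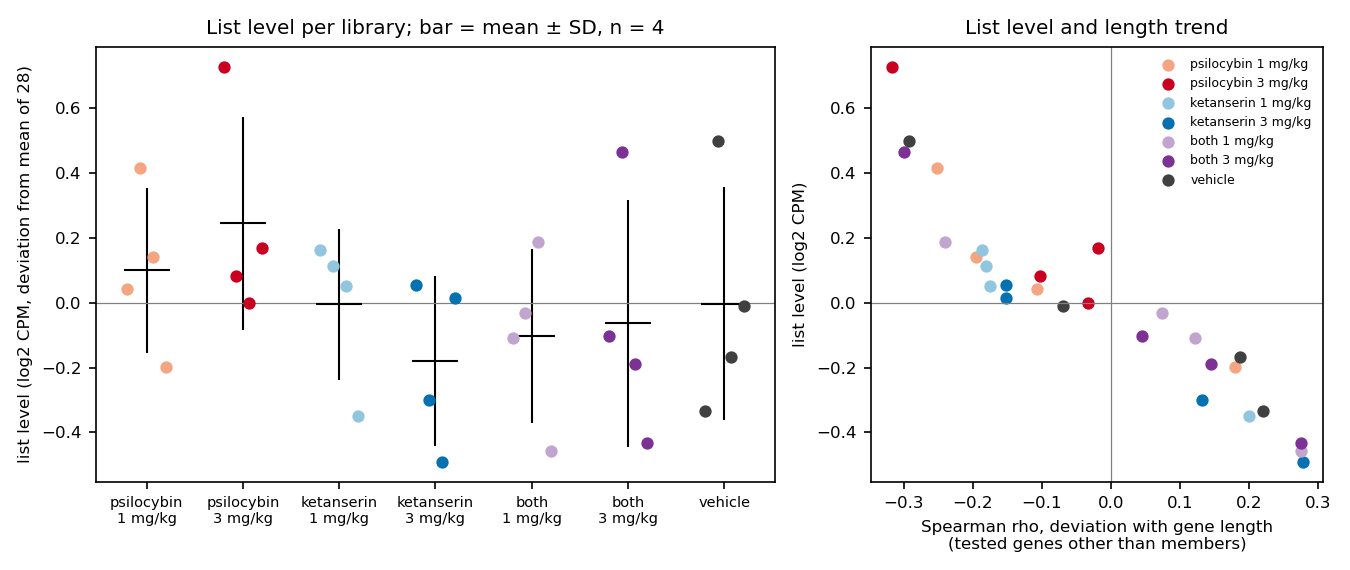
Left, list level of the 77 tested ribosomal protein members (y axis, log2 CPM as deviation from the mean of 28 libraries) for each library by group, with bars for the mean ± SD of 4 libraries. Right, the same levels against the library's Spearman rho between deviation and gene length, where libraries above 0.1 all have a negative rho and libraries below -0.1 all have a positive one.

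Members differed in how closely they followed. Within-group SDs of log2 CPM (pooled over the 7 groups) were smallest for Rpl3 (0.151), Rpl4 (0.157) and Rps4x (0.192), and largest for Rpl35a on chromosome 12 (2.04), Rpl38 on chromosome 8 (0.968) and the Rpl7a record ENSRNOG00000049097 (0.772). The sum of the S4 records, of which Rps4x held 19.7%, had an SD of 0.237. Over the 58 members of at least 50 CPM the median SD was 0.307, against 0.179 for the 4002 other genes of at least 50 CPM. Among those 58 members the SD was lower for longer records (Spearman's rho -0.57) and for higher counts (rho -0.56), as a description over genes that share the same libraries. The 19 shortest, of 305 to 496 bases, had a median SD of 0.370, and the 19 longest, of 809 to 5151 bases, had 0.264. Members with the TOP tract at the start had a median SD of 0.323 (18 members of at least 50 CPM) and those without it 0.311 (27 members). Windows were matched to records by symbol alone, so a window can belong to another locus. The Rpl37 window, with the tract, lies on chromosome 2, but its counted record is on chromosome 10.

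**Figure D3:**
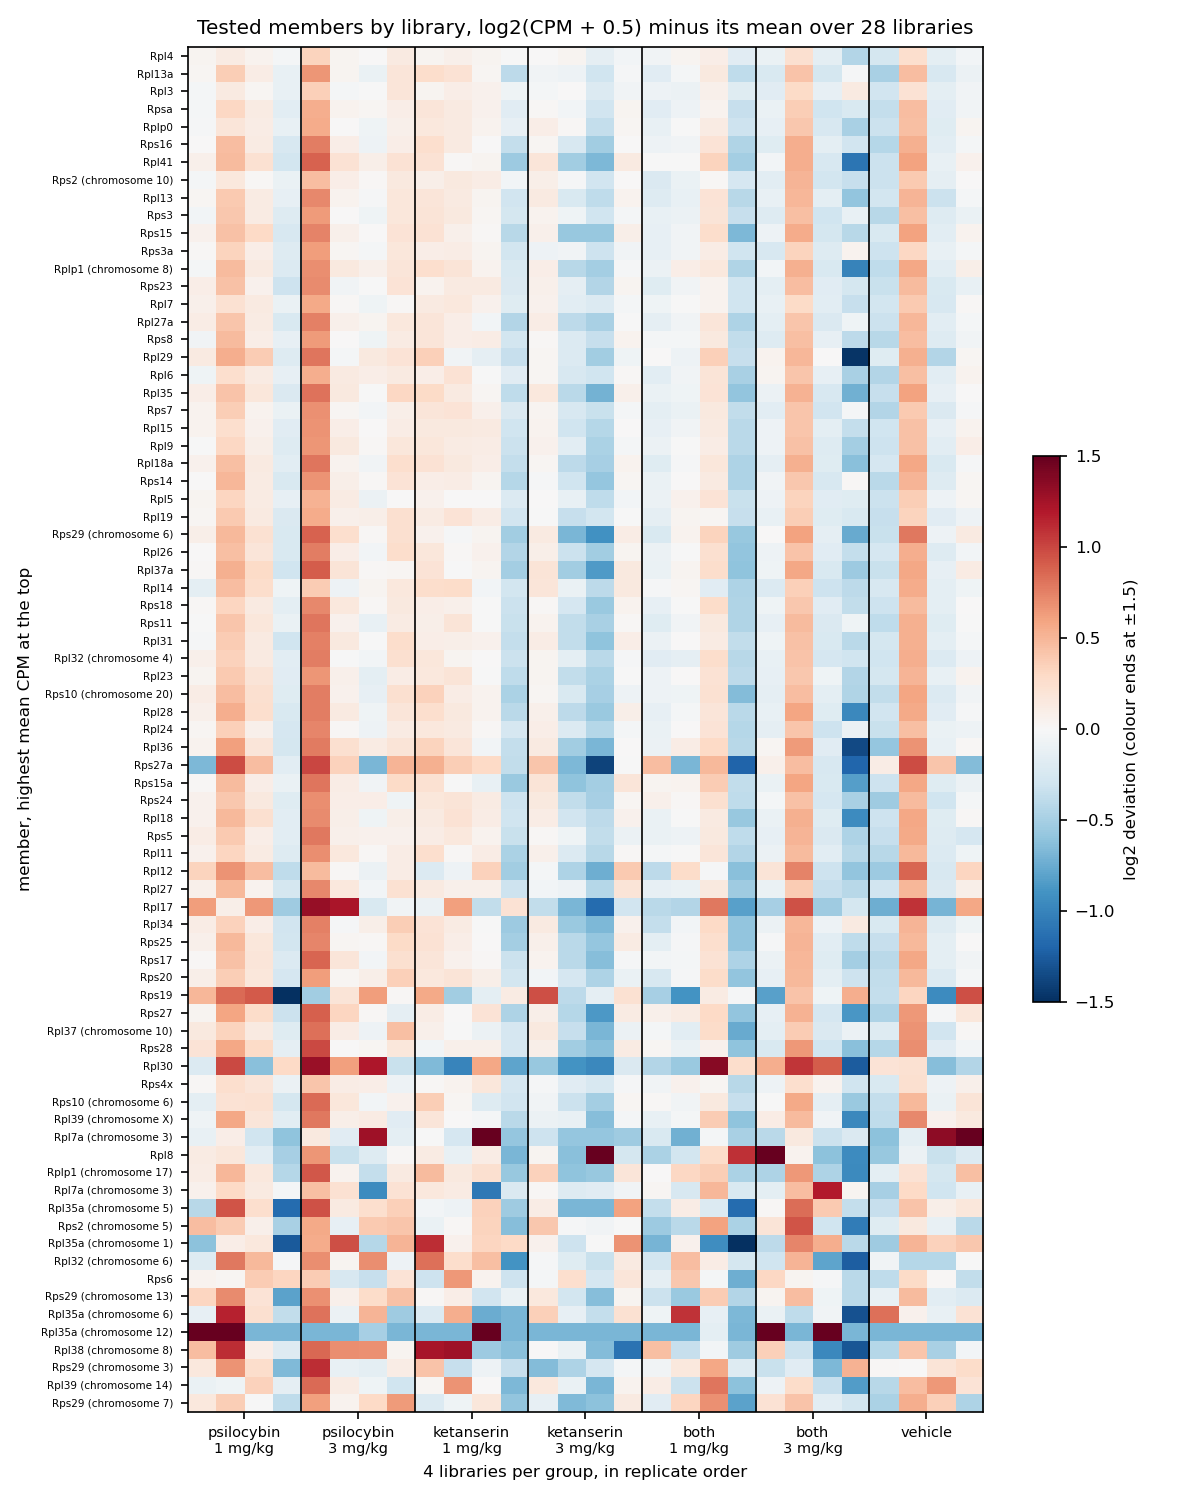
Each of the 77 tested members (y axis, highest mean CPM at the top) in each of 28 libraries (x axis, 4 per group), as log2(CPM + 0.5) minus its mean over all libraries, with the colour scale ending at ±1.5. Columns mostly carry one colour, most of all replicate 1 of psilocybin 3 mg/kg, while Rpl17, Rps19, Rps27a, Rpl30, Rpl7a, Rpl8 and the Rpl35a records leave the common pattern.

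No member passed the test in any comparison between groups. With edgeR's quasi-likelihood test on 17404 genes and Benjamini-Hochberg adjustment, 0 of 77 members had an adjusted p under 0.05 in any of the 15 comparisons, and DESeq2 called 0 members too. The background was 0% of all tested genes in 14 of these comparisons. It was 0.00575% (1 gene) for ketanserin with psilocybin at 3 mg/kg against vehicle. In a test for any difference among the 7 groups, 0 of 77 members and 0.0172% of all genes (3) were called, and 2 members, against 2.22% of all genes, had an unadjusted p under 0.05. Over members of at least 50 CPM, the median 95% interval of a fold change against vehicle reached 0.43 log2 units to either side. Smaller shifts were thus mostly not detectable with 4 animals a group. The interval is not adjusted for the 17404 genes tested, so larger shifts could also go uncalled.

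The list level by group lay at 0.10 ± 0.25 (SD, n = 4) for psilocybin 1 mg/kg, 0.24 ± 0.33 for psilocybin 3 mg/kg, -0.005 ± 0.23 for ketanserin 1 mg/kg, -0.18 ± 0.26 for ketanserin 3 mg/kg, -0.10 ± 0.27 for the combination at 1 mg/kg, -0.06 ± 0.38 for the combination at 3 mg/kg and -0.003 ± 0.36 for vehicle. The levels of every treated group overlapped those of vehicle, which spanned -0.33 to 0.50. The pooled within-group SD was 0.303, larger than every difference from vehicle. It describes single libraries and is not the error of a difference between group means. The 6 comparisons with vehicle share its 4 libraries, so their medians move together when 1 vehicle library is left out.

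After psilocybin alone, most ribosomal protein members lay above vehicle by small amounts that did not pass the test. Of the 77 members 72 were higher at 3 mg/kg, with a median log2 fold change of 0.24, against -0.01 over all tested genes. At 1 mg/kg, 68 of 77 were higher, with a median of 0.08 against -0.01. An unadjusted p under 0.05 was reached by 0 members at 3 mg/kg, against 3% of all genes, and by 2 members at 1 mg/kg, against 1.66% of all genes. Without GF6 the median at 3 mg/kg was 0.06, and without vehicle replicate 2 it was 0.45. At 1 mg/kg the median was -0.04 without replicate 2 of that group, -0.01 without vehicle replicate 1 and 0.30 without vehicle replicate 2.

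Rpl30, a 60S protein that in budding yeast also controls the splicing of its own transcript, had the lowest p among the higher members at 3 mg/kg. It had 111.0, 69.2, 105.0 and 35.7 CPM in the 4 psilocybin 3 mg/kg libraries, against 52.1, 52.8, 28.7 and 33.1 CPM in the 4 vehicle libraries. In all, 3 drug libraries lay above all vehicle libraries and the fourth lay among them. The log2 fold change was 0.94 ± 0.49 (SE), with an edgeR adjusted p of 0.997. This record held 42.5% of the reads summed over all L30 records.

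Rpl19, a 60S protein that makes a bridge to the small subunit, was next. It had 349.5, 249.2, 250.6 and 279.0 CPM in the psilocybin 3 mg/kg libraries, against 185.9, 297.3, 209.9 and 224.9 CPM in the vehicle libraries. The groups overlapped only through vehicle replicate 2. The log2 fold change was 0.30 ± 0.16, with an edgeR adjusted p of 0.997.

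The most abundant member per length followed the libraries closely. Rpl41 had 594.3, 374.2, 341.8 and 374.7 CPM in the psilocybin 3 mg/kg libraries, against 257.4, 488.5, 296.8 and 337.5 CPM in the vehicle libraries. GF6 was highest in the drug group and replicate 2 in the vehicle group, the libraries with the highest list levels, and the groups overlapped. The log2 fold change was 0.29 ± 0.28 for Rpl41, 0.19 ± 0.11 for Rpl3 and 0.17 ± 0.11 for Rpl4, all at an edgeR adjusted p of 0.997. For the stalk proteins it was 0.14 ± 0.17 for Rplp0 and 0.22 ± 0.24 for Rplp1 on chromosome 8. The lower members with the lowest p at 3 mg/kg were the Rpl7a record ENSRNOG00000049097 (-0.65 ± 0.54) and Rpl12 of the stalk base (-0.06 ± 0.31), whose sign turned without vehicle replicate 2 (0.26).

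In the same comparison other lists gave the following. Translation factors, which include elongation and initiation factors, were higher in 25 of 29 tested genes (median log2 fold change 0.10), and genes of ribosome biogenesis in 22 of 31 (0.07). Mitochondrial ribosomal protein genes were higher in 62 of 73 (0.12) and nuclear respiratory chain genes in 73 of 81 (0.17), while genes of mTOR signalling and translation control were higher in 6 of 17 (-0.07). None of these genes was called in either direction. In single libraries the respiratory chain level was -0.04 to 0.69 after psilocybin 3 mg/kg, highest in GF6, and -0.28 to 0.48 in vehicle. The mitochondrial ribosomal level was -0.04 to 0.59, against -0.21 to 0.40 in vehicle. These ranges overlapped, and how far the medians of these lists rest on GF6 was not tested. All 10 oligodendrocyte markers were lower (median -0.41), with a summed level of 2402.59 to 5899.98 CPM in psilocybin 3 mg/kg libraries, against 2976.4 to 8313.58 CPM in vehicle libraries. Their part in the ribosomal protein values was not tested.

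After ketanserin alone, the ribosomal protein members lay below vehicle at 3 mg/kg and near it at 1 mg/kg, again without a call. Of the 77 members 69 were lower and 7 higher at 3 mg/kg (Rpl35a on chromosome 12 was at 0 in both groups), with a median log2 fold change of -0.20, against -0.02 over all genes. At 1 mg/kg 46 were lower and 31 higher, with a median of -0.03 against -0.02. An unadjusted p under 0.05 was reached by 1 member at each dose, against 2% of all genes at 3 mg/kg and 2.06% at 1 mg/kg. Without vehicle replicate 2 the medians were 0.01 at 3 mg/kg and 0.20 at 1 mg/kg, and without GF30 the median at 1 mg/kg was 0.09. Limma on log2 FPKM also gave a positive median at 1 mg/kg, 0.01.

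Rpl17, a 60S protein at the tunnel exit, had the lowest p at 3 mg/kg after a record of Rpl7a described further on. It had 84.3, 67.6, 48.8 and 89.1 CPM in the ketanserin 3 mg/kg libraries, against 65.7, 232.7, 67.4 and 163.2 CPM in the vehicle libraries. The groups overlapped, since 2 vehicle libraries lay within the drug range. The log2 fold change was -0.87 ± 0.45, with an edgeR adjusted p of 1. Rpl17 overlaps another protein-coding record on the same strand, so its reads could have been divided.

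The chromosome 6 record of Rps29 had 227.1, 215.5, 224.3 and 151.6 CPM in the ketanserin 1 mg/kg libraries and 239.6, 134.6, 115.4 and 236.1 CPM in the ketanserin 3 mg/kg libraries, against 173.0, 375.8, 206.4 and 239.0 CPM in the vehicle libraries. Both drug groups overlapped vehicle, and the 1 mg/kg library that was lowest is GF30. The log2 fold change was -0.28 ± 0.29 at 1 mg/kg and -0.45 ± 0.29 at 3 mg/kg, with edgeR adjusted p of 1 in both. Rpl8, which lies near the peptidyl transferase centre, was the higher member of lowest p at 3 mg/kg (0.88 ± 0.54), and this rested on replicate 3, at 35.5 CPM against 6.39 to 10.4 CPM in the other 3 libraries of its group and 6.62 to 9.50 CPM in vehicle.

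Other lists were read in the same comparison. At ketanserin 3 mg/kg, nuclear respiratory chain genes were lower in 72 of 81 (median -0.16) and mitochondrial ribosomal protein genes in 65 of 73 (-0.12), while translation factors were lower in 18 of 29 (-0.02) and genes of ribosome biogenesis in 15 of 31 (0.01). None of these genes was called. In single libraries the respiratory chain level was -0.49 to 0.10 after ketanserin 3 mg/kg, and -0.28 to 0.48 in vehicle. The mitochondrial ribosomal level was -0.38 to 0.10, against -0.21 to 0.40 in vehicle. These ranges overlapped, and how far the medians of these lists rest on vehicle replicate 2 was not tested.

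**Figure D4:**
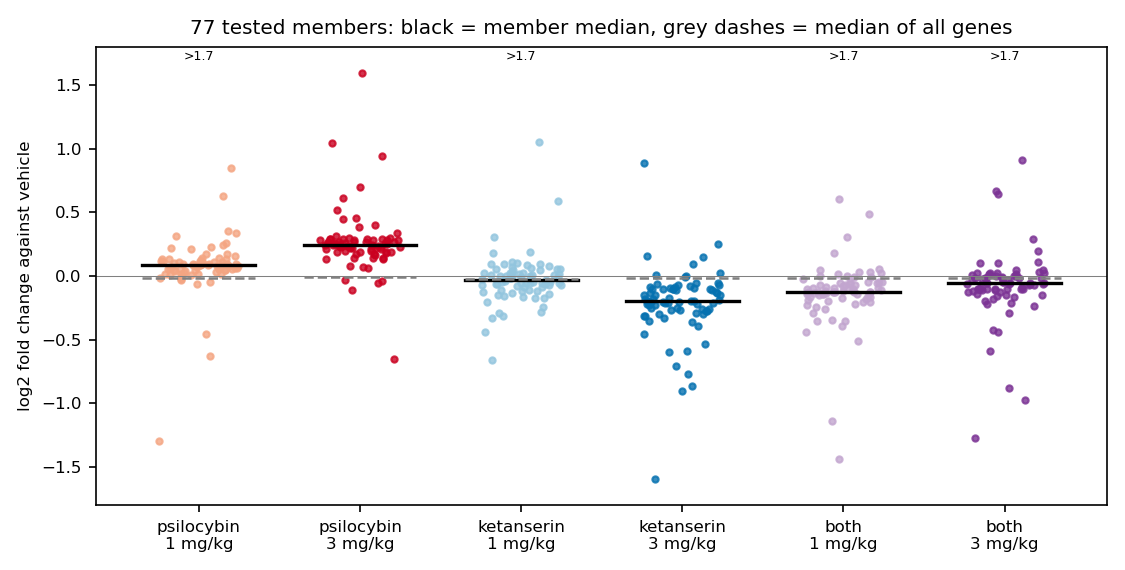
Log2 fold change against vehicle (y axis) of each of the 77 tested members in the 6 treated groups (x axis), with the member median as a black line and the median of all 17404 tested genes as grey dashes. The member median is highest for psilocybin 3 mg/kg (0.24) and lowest for ketanserin 3 mg/kg (-0.20), and the 4 points beyond 1.7, marked at the upper edge, are all Rpl35a on chromosome 12, whose fitted values are set against vehicle libraries at 0 and are no measure of size.

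With ketanserin and psilocybin together, the members lay slightly below vehicle. At 1 mg/kg of each, 65 of 77 were lower, with a median of -0.12 against -0.01 over all genes, and at 3 mg/kg of each 54 of 77 were lower, with a median of -0.06 against -0.02. An unadjusted p under 0.05 was reached by 2 members at 1 mg/kg, against 1.3% of all genes, and by 3 at 3 mg/kg, against 3.13%. Without vehicle replicate 2 both medians were positive, at 0.09 and 0.15. Without replicate 4 of the combination at 3 mg/kg, the library with the additional records at 0, the median at that dose was 0.05. The log2 fold changes of Rpl3 and Rpl4, the steadiest members, were -0.01 ± 0.11 and 0.02 ± 0.11 at 1 mg/kg, and 0.10 ± 0.11 and -0.05 ± 0.11 at 3 mg/kg.

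All 9 cases of an unadjusted p under 0.05 against vehicle came from Rpl7a and Rpl35a records. The Rpl7a record ENSRNOG00000049097 (chr3:4867233-4869656) gave 4 of them, with a log2 fold change of -1.60 ± 0.55 for ketanserin 3 mg/kg at an edgeR adjusted p of 1. It had 10.2, 8.36, 8.35 and 8.63 CPM in those libraries, against 8.11, 11.4, 32.9 and 55.0 CPM in the vehicle libraries. The vehicle replicates 3 and 4 were the high ones, and 2 other libraries of the 28 were as high, at 31.6 CPM in psilocybin 3 mg/kg replicate 3 and 64.3 CPM in ketanserin 1 mg/kg replicate 3, with all others at 7.56 to 14.2 CPM. The Rpl35a record ENSRNOG00000047557 (chr12:7424258-7424658) had reads in 7 libraries: 5.56 and 4.05 CPM in psilocybin 1 mg/kg, 0.0694 CPM in psilocybin 3 mg/kg, 7.92 CPM in ketanserin 1 mg/kg, 0.227 CPM in the combination at 1 mg/kg, and 7.06 and 5.64 CPM in the combination at 3 mg/kg. All 4 vehicle libraries were at 0, as were at least 2 libraries of every treated group, so no fold is given.

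Set against psilocybin alone, the combination had lower members at both doses. Of the 77 members 74 were lower at 3 mg/kg (median -0.28, all genes -0.01), and at 1 mg/kg 73 of 77 (median -0.20, all genes 0.01). An unadjusted p under 0.05 was reached by 2 members at 3 mg/kg, against 5.74% of all genes, and by 1 at 1 mg/kg, against 4.13%. The median at 3 mg/kg was -0.10 without GF6, -0.18 without replicate 4 of the combination and -0.49 without its replicate 2, and at 1 mg/kg it ranged from -0.30 to -0.08 when 1 library was left out. Nuclear respiratory chain genes were lower in 76 of 81 at 3 mg/kg (-0.29) and in 72 of 81 at 1 mg/kg (-0.22), and none of them was called. Their levels in single libraries overlapped between the groups at both doses. How far these medians rest on single libraries was not tested.

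Set against ketanserin alone, the combination had lower members at 1 mg/kg and higher members at 3 mg/kg. At 1 mg/kg 65 of 77 were lower (median -0.10, all genes 0.02), with 3 members at an unadjusted p under 0.05, against 2.92% of all genes. At 3 mg/kg 67 of 77 were higher (median 0.12, all genes 0.01), with 2 members, against 3.41% of all genes. The median at 1 mg/kg was -0.0022 without replicate 4 of the combination and -0.20 without GF30. The median at 3 mg/kg turned to -0.06 without replicate 2 of the combination, and was 0.245 without its replicate 4. No member was called in either comparison.

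Between doses, the members were higher at 3 than at 1 mg/kg of psilocybin in 70 of 77 (median 0.16), with 1 member at an unadjusted p under 0.05, against 3.24% of all genes, and the median was -0.04 without GF6. For ketanserin 72 of 77 were lower at the higher dose (median -0.16), with 3 members, against 1.64%, and without GF30 the median was -0.26. For the combination 60 of 77 were higher at the higher dose (median 0.07), with 2 members, against 3.3%. That median was -0.15 without replicate 2 of the combination at 3 mg/kg, 0.18 without its replicate 4 and -0.04 without replicate 4 of the combination at 1 mg/kg.

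The interaction asks whether the combination differs from the sum of both drugs alone. It was calculated as combination minus psilocybin minus ketanserin plus vehicle on the log2 scale. At 1 mg/kg 66 of 77 members had a negative interaction (median -0.18, all genes 0.04), with 1 member at an unadjusted p under 0.05, against 4.09% of all genes. That median was -0.40 without vehicle replicate 2 and -0.06 without replicate 2 of psilocybin 1 mg/kg. At 3 mg/kg 61 of 77 were negative (median -0.12, all genes 0.02), with 0 members, against 3.2%, and the median was 0.07 without GF6, -0.33 without vehicle replicate 2 and -0.0065 without replicate 4 of the combination. No member was called in either.

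When the records of each protein were summed, no protein was called in the 15 comparisons. For 22 of 65 proteins the sum spread less within groups than its lead record. For L30 the within-group SD was 0.742 for Rpl30 and 0.317 for the sum, for L38 0.968 and 0.400, for S27a 0.707 and 0.339, for L7a 0.772 and 0.385, for S19 0.769 and 0.409, and for L8 0.749 and 0.422. Rpl17 has no other record, so its SD of 0.671 was not lowered. The S6 sum spread more than Rps6 itself, at 0.974 against 0.386, through the S6-like record LOC100911372, also on chromosome 5, which ran from 4.62 to 56.5 CPM over the libraries. With the sums, 67 of 68 proteins were higher after psilocybin 3 mg/kg than in vehicle (median 0.24) and 5 of 68 after ketanserin 3 mg/kg (median -0.18), with 0 of 68 called.

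The L30 records differed in opposite directions in single libraries, and a division of reads between them was not tested. In psilocybin 3 mg/kg replicate 3, Rpl30 had 105.0 CPM and LOC100362027, an intronless record described as L30-like on chromosome 10, had 11.1 CPM. In replicate 4 of the combination at 3 mg/kg Rpl30 had 18.7 CPM and LOC100362027 had 95.6 CPM. The summed L30 level was 116.1 and 114.2 CPM in these 2 libraries, so the records differed far more than their sum.

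The stalk protein P2 was the protein whose summed level differed among the groups. In the test for any difference it had an edgeR adjusted p of 0.0318, where 0.0173% of all tested features (3 of 17323) were called. The sum was 91.6, 84.6, 59.0 and 64.2 CPM in ketanserin 1 mg/kg libraries, 67.1, 82.9, 43.4 and 59.0 CPM in the combination at 1 mg/kg and 81.5, 137.6, 78.8 and 66.8 CPM in the combination at 3 mg/kg. It was 25.8 to 39.05 CPM in ketanserin 3 mg/kg and 26.3, 43.8, 31.4 and 35.6 CPM in vehicle libraries. Thus 2 of the 3 higher groups had all 4 libraries above vehicle, while psilocybin alone at 1 mg/kg (31.7 to 53.3 CPM) and 3 mg/kg (31.1 to 57.6 CPM) overlapped it. This sum was formed after values had been seen. The call was lost in 18 of 28 fits that left out 1 library, with an adjusted p of 0.00602 to 0.113, the highest without psilocybin 3 mg/kg replicate 4. With all libraries it was kept in edgeR under other scalings (adjusted p 0.00593 to 0.0318) and with no filter (0.0400). DESeq2's likelihood-ratio test gave an adjusted p of 2.3e-08.

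The record LOC100911575, described as P2-like (chr1:214428526-214430515), was high in the same groups. With a mean of 22.1 CPM it is itself part of the P2 sum of 54.4 CPM, so its likeness to that sum is no separate support. It has the same strand, exon length (348 bases) and span (1990 bases) as Rplp2 (chr1:213991620-213993609), 436906 bases away. The record had 52.6, 87.3, 51.7 and 46.9 CPM in the combination at 3 mg/kg, against 2.10, 3.30, 2.97 and 4.11 CPM in vehicle, and was the only gene called in that comparison (log2 fold change 4.25 ± 0.66, edgeR adjusted p 0.0183). The log2 fold change was 4.01 to 4.42 with 1 library left out, and the call was lost without any one of the vehicle libraries (adjusted p 0.108 to 0.235), without replicate 2 of the combination (0.0773) and with no filter on low counts (0.0849). The call was kept in edgeR under other scalings (adjusted p 0.0172 to 0.0236) and by DESeq2 (adjusted p 3.8e-08). The record was also high in all 4 ketanserin 1 mg/kg libraries (26.6 to 51.3 CPM) and in 3 of 4 libraries of the combination at 1 mg/kg, with 4.17 CPM in the other one. In ketanserin 3 mg/kg it had 3.52, 2.50, 16.0 and 3.21 CPM, so it was not high in every group that had ketanserin. The most abundant P2 record otherwise, LOC498555, an intronless record on chromosome 15, had 18.4 to 46.9 CPM in the combination at 3 mg/kg and 21.97 to 36.8 CPM in vehicle, and these ranges overlapped.

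**Figure D5:**
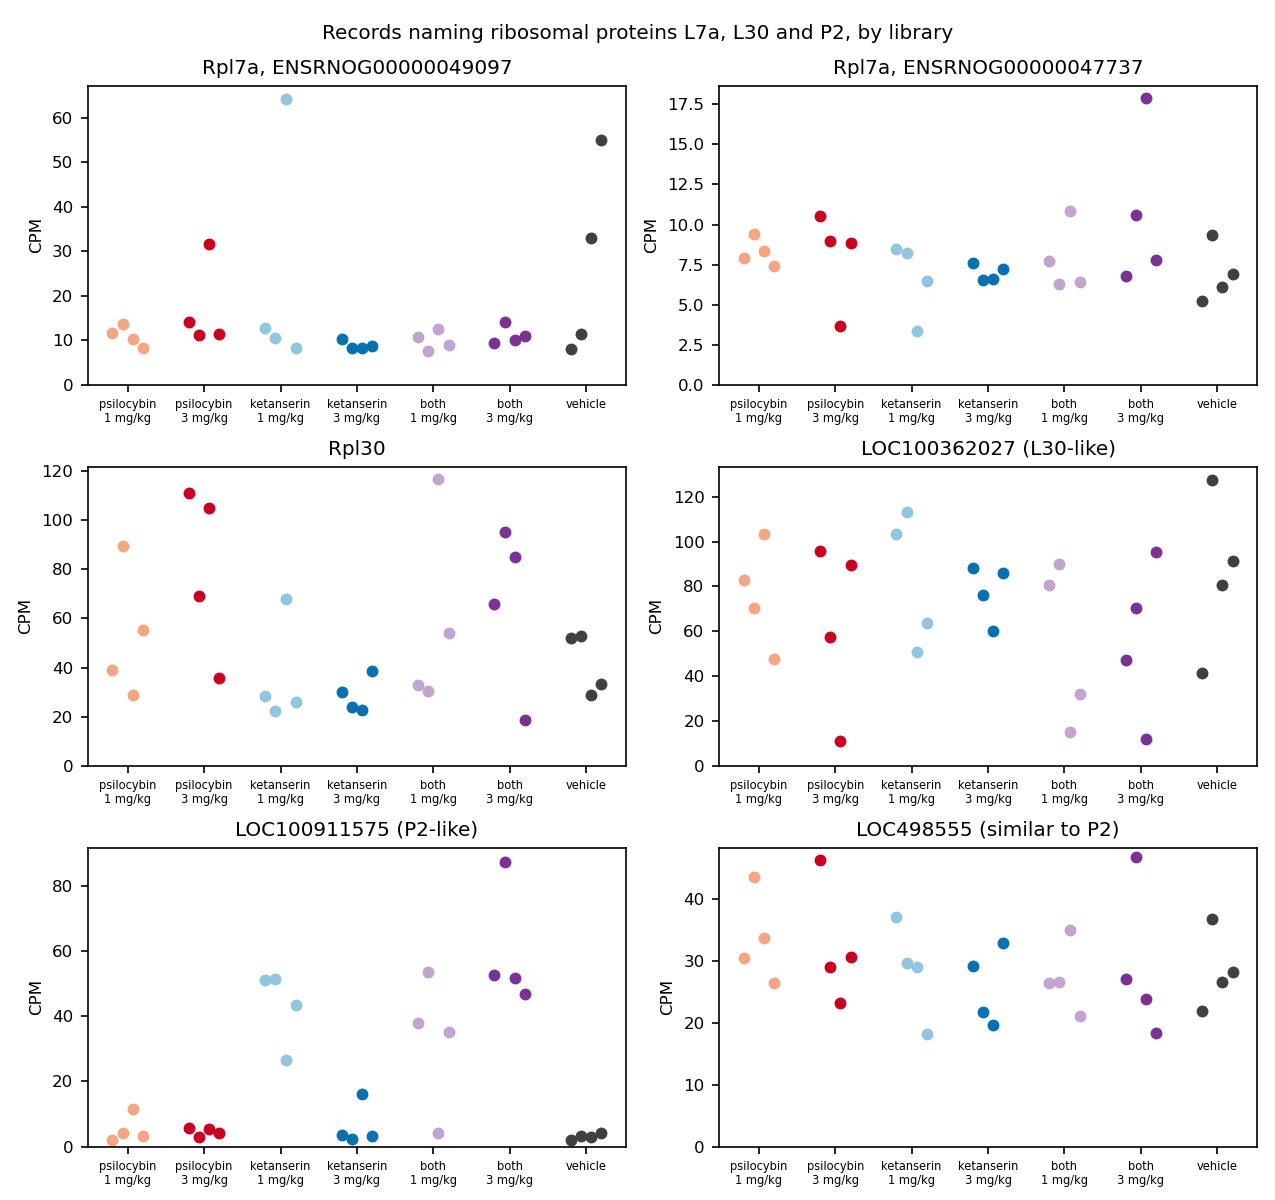
CPM (y axis, from 0) of 6 records that name ribosomal proteins L7a, L30 and P2 in each of 28 libraries, by group on the x axis, with 1 point per library. LOC100911575 reaches 87.3 CPM in the combination at 3 mg/kg and stays at or below 4.11 CPM in vehicle, while LOC498555 shows no such split and Rpl30 and LOC100362027 run opposite to each other in single libraries.

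Pairs of records with equal strand, length and span recurred elsewhere in the list; their sequences were not compared here. The other Rpl7a record, ENSRNOG00000047737 (chr3:5459160-5461583), lies 591927 bases from the first with the same strand, length and span. In the 2 libraries where the first record was highest outside vehicle, psilocybin 3 mg/kg replicate 3 and ketanserin 1 mg/kg replicate 3, it had its 2 lowest values, 3.68 and 3.33 CPM, within a range up to 17.9 CPM. In vehicle replicates 3 and 4, where the first record was also high, it had 6.07 and 6.92 CPM, inside the range of the other libraries. Rpl8 and LOC100910370 on chromosome 7, 539406 bases apart, and the Rpl35a records on chromosome 12, 237785 bases apart, are matched in the same way. Division of reads within these pairs was not tested, since no reads were used.

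Members with the TOP tract at the annotated start were set beside those without it there. For psilocybin 3 mg/kg against vehicle the median log2 fold change was 0.25 for the 18 members with the tract at the start and 0.24 for the 27 without. For ketanserin 3 mg/kg it was -0.22 and -0.15. These medians describe members of at least 50 CPM with a promoter window matched by symbol alone, and their difference was not tested. Of the 54 member windows, 33 had a tract within 5 bases of the start and 21 at the start itself. The members without it are therefore a mixed set, and the medians cannot show whether the tract matters.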

How the data were processed

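Prefrontal cortex RNA of 28 rats (7 groups of 4 biological replicates) was analysed. Libraries were directional (dUTP) and from poly-A RNA, per the labels' protocols. The authors deposited raw counts per gene and FPKM values per gene. The submitters' processing notes list rn6 as the build and, as tools, featureCounts 1.5.0-p3, StringTie 1.3.3b and HISAT2 2.0.5. The strand setting of the counting and the handling of reads with several matches are not given in the sources used here. The library size implied by the deposited FPKM was 0.915 to 1.07 times the total count.

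The analysis of the counts used edgeR 4.0.16 in R 4.3.3 (filterByExpr by group, TMM scaling, quasi-likelihood F test, two-sided, 1 model of 7 groups with 21 residual degrees of freedom). Benjamini-Hochberg adjustment ran over 17404 genes, with 0.05 as the threshold. CPM are counts relative to the TMM-scaled total, and log2 values use a prior count of 2. Alternatives were DESeq2 1.42.0, limma 3.58.1 on log2(FPKM + 0.1), other scalings and filters, and each library left out in turn. The fit was also run on simulated counts with known changes, in which genes were independent and shared a common dispersion. No shift common to a library was simulated, so that run does not cover the shared movement of the members.

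The members and lists were chosen with earlier results of these data known. Named members are the 3 highest and lowest in FPKM, the 3 most and least variable, those of lowest p in each direction per comparison, and members of known role. The P2-like and other non-member records were named after their values were seen. Replicate numbers only name libraries and pair nothing.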

Additional observations from a re-analysis of the deposited data

Results flagged for a closer look

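Single libraries lay far from the other 3 of their group in 16 of 133 member-by-group sets (12%) among 19 named members, by Dixon's test at the 95% level (critical value 0.829 for 4 values). Chance gives about 1 in 20, but members were named partly for their spread or a low p, so the share cannot be read against it. None of the 14 sets of list level and read share was among them, which with 4 values does not show that no library stood apart.

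Several of these sets belonged to records of low level or with another record of the same protein. The Rpl7a record ENSRNOG00000049097 had 31.6 CPM in psilocybin 3 mg/kg replicate 3 (others 11.3 to 14.2), 64.3 CPM in ketanserin 1 mg/kg replicate 3 (others 8.32 to 12.7) and 10.2 CPM in ketanserin 3 mg/kg replicate 1 (others 8.35 to 8.63). Rpl35a on chromosome 12 had 0.0694 CPM in psilocybin 3 mg/kg replicate 3, 7.92 CPM in ketanserin 1 mg/kg replicate 3 and 0.227 CPM in replicate 3 of the combination at 1 mg/kg, with all others of these groups at 0. Rpl8 had 35.5 CPM in ketanserin 3 mg/kg replicate 3 (others 6.39 to 10.4) and 39.4 CPM in replicate 1 of the combination at 3 mg/kg (others 5.03 to 10.5). The chromosome 5 record of Rps2 had 4.82 CPM in ketanserin 3 mg/kg replicate 1 (others 3.38 to 3.53) and 5.61 CPM in replicate 3 of the combination at 1 mg/kg (others 2.26 to 2.54).

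Among abundant members, Rpl30 had 67.8 CPM in ketanserin 1 mg/kg replicate 3 (others 22.4 to 28.2). Rpl17 had 190.1 CPM in replicate 3 of the combination at 1 mg/kg (others 62.0 to 82.7) and 211.9 CPM in replicate 2 of the combination at 3 mg/kg (others 75.5 to 91.1). Rpl19 had 306.4 CPM in replicate 2 of the combination at 3 mg/kg (others 201.9 to 218.6). Rpl41 had 594.3 CPM in GF6 (others 341.8 to 374.7), and the chromosome 6 record of Rps29 had 151.6 CPM in GF30 (others 215.5 to 227.1). Ketanserin 1 mg/kg replicate 3 stood out for Rpl7a, Rpl35a and Rpl30, each of which has other records of the same protein.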

How the results depend on the processing

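No paired analysis was possible because the labels number no replicates. The count of members called stayed at 0 in every comparison under each scaling, filter, tool, sample and member alternative run, including every library left out in turn, except that summing the records of a protein gave 1 call (P2) in the test for any difference. That alternative, the restriction to members of at least 50 CPM and the removal of GF6 with GF9 were chosen after seeing the data, as were all alternatives for the P2 sum and the P2-like record. The sign of the list median changed without 1 library in 9 of 15 comparisons, and under a scaling, filter, tool or member alternative in 1 (ketanserin 1 mg/kg against vehicle, 0.01 by limma on FPKM). Single members reversed as follows. Rpl12 for psilocybin 3 mg/kg against vehicle had a log2 fold change of 0.14 without GF6 and GF9, 0.031 by limma on FPKM and -0.24 to 0.26 with 1 library left out. Rps29 on chromosome 6 for ketanserin 1 mg/kg against vehicle had 0.0084 without GF6 and GF9 and -0.42 to 0.0083 with 1 library left out. With 1 library left out, Rpl30 for the combination at 1 mg/kg against vehicle ranged from -0.084 to 0.71, Rpl8 from -0.055 to 0.57 for the combination at 1 mg/kg against psilocybin and from -0.16 to 0.95 for ketanserin 3 against 1 mg/kg, and Rpl35a on chromosome 6 from -0.22 to 1.06 (interaction at 1 mg/kg). Rpl35a on chromosome 12 was given no value where a group was at 0. The cause was not tested. Depth limits the 12 tested members under 5 CPM, and 4 animals a group limit the rest.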
